A study of Mus musculus with 7 samples.

Results

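The endoplasmic reticulum (ER) stress response was examined in hearts under pressure overload as a set of 37 genes out of 53460 with a value. The set was taken by name for known roles, with earlier results of these data known. The genes fell into 6 branches: sensors, transcription factors, chaperones, disulfide enzymes with secreted ER proteins, ER-associated degradation (ERAD), and targets of ATF4 with the regulatory subunits of the eIF2alpha phosphatase. The TAC + EMPA group (n = 4 mice) had transverse aortic constriction (TAC), a narrowing of the aorta that loads the left ventricle with pressure, and then received empagliflozin, an inhibitor of the renal sodium-glucose cotransporter SGLT2, in chow for 5 days starting 2 weeks after the operation. The TAC group (n = 3 mice) had TAC alone. All 7 were male C57BL/6Ncr mice (C57BL/6NCrSlc in the text of the study), aged 14 weeks at sampling per the labels. The labels place the operation at 12 weeks, and the text of the study gives another age for it. For both groups the labels give 2 weeks from operation to sampling, while the study puts sampling at 2 weeks plus 5 days. Sham hearts were not analysed here, so the values show how the drug-fed hearts differed from other overloaded hearts and not how overload itself acted.

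The ER folds secreted and membrane proteins, and a surplus of unfolded proteins in its lumen starts the unfolded protein response. The response has 3 sensors in the ER membrane: IRE1 (Ern1), which splices the Xbp1 mRNA, PERK (Eif2ak3), which phosphorylates eIF2alpha and thereby favors translation of ATF4, and ATF6, which is cut in the Golgi and enters the nucleus. The factors made this way raise transcripts of chaperones, of the ERAD machinery that sends misfolded proteins to the proteasome, and, through ATF4 and CHOP (Ddit3), of genes of amino acid supply and cell death. In the heart, pressure overload is a known setting of this response, and cardiomyocytes also use ATF6 in the handling of oxidative stress. The measurements were gene-level FPKM (fragments scaled to transcript length and to the mapped fragments of the library), so neither the splicing of Xbp1, nor the phosphorylation of eIF2alpha, nor the cleavage of ATF6 was measured.

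Promoter sequences were read first, since these factors bind known short elements and the members that carry them could then be set beside their values. The RefSeq promoter table of GRCm38.p6 held a window, 250 bases before to 50 bases after the annotated start, for 32 of the 37 members. The ER stress response element (ERSE), bound by ATF6 with NF-Y, was searched as CCAAT and CCACG separated by any 9 bases, and ERSE-II as ATTGG, any base and CCACG. The element of ATF4 (CARE) was searched as TGATG, any base and AA, and the UPR element (UPRE) as TGACGTG followed by any base, each on both strands. ERSE stood in 9 of the 32 members with a window, against 0.119% of 32851 windows of all genes. ERSE-II stood in 2 members (0.0365% of all windows), CARE in 5 (3.97%) and UPRE in 1 (2.01%). The CCACG part alone, which is contained in ERSE and ERSE-II, stood in 24 members (32.8% of all windows). A match is a description of these letters and not a measured binding site. The members were picked as known genes of this response, so a higher share than in all windows is no test.

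Herpud1 was the one member with both an ERSE-II and a CARE match, and its whole window is shown because Herpud1 had the largest log2 fold change of the set. The capitals mark the CARE match, on the reverse strand from position -112 to -105 from the start, and the ERSE-II match from -52 to -42.
Herpud1 promoter (chr8:94386179-94386478, + strand, GRCm38.p6): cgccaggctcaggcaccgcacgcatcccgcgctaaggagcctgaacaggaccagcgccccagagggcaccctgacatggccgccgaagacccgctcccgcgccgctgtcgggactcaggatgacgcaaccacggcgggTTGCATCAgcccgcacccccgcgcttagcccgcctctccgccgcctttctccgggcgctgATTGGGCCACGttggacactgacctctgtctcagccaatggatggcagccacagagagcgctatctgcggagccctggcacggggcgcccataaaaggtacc

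The other windows are shown with the match in capitals and up to 15 bases on either side, in the direction of transcription, for the members whose values are described at length. Dnajb11 carried the other ERSE-II of the set, after its start, and had values in the opposite direction to those of Herpud1. In the proximal window of Hsp90b1 and in those of Atf3, Chac1 and Trib3 the match is on the reverse strand, so the capitals show its reverse complement.
Dnajb11 ERSE-II (chr16:22857837-22857877, + strand): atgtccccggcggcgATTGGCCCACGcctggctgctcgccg
Hspa5 ERSE (chr2:34772010-34772058, + strand): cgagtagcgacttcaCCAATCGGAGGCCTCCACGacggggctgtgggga
Hsp90b1 ERSE, distal (chr10:86705623-86705671, - strand): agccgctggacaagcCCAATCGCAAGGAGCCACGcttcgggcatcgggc
Hsp90b1 ERSE, proximal (chr10:86705518-86705566, - strand): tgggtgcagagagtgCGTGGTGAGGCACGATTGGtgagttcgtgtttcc
Canx ERSE (chr11:50325785-50325833, - strand): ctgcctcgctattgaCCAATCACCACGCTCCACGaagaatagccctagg
Pdia6 ERSE (chr12:17266476-17266524, + strand): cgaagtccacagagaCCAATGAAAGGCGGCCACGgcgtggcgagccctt
Atf3 CARE (chr1:191183421-191183458, - strand): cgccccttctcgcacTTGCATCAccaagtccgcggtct
Chac1 CARE (chr2:119351034-119351071, + strand): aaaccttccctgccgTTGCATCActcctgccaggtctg
Trib3 CARE (chr2:152344024-152344061, - strand): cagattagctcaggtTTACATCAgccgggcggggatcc
Asns CARE (chr6:7693210-7693247, - strand): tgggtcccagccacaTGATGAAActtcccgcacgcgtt

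Of the 37 members, 36 had a mean of at least 1 FPKM over the 7 libraries and entered the test. None was listed at 0 in a library, and none carried a failed status. Derl3, a derlin of the retrotranslocation channel, was left out of the test at 0.170, 0.258, 0.0663 and 0.212 FPKM in the TAC + EMPA group, against 0.274, 0.161 and 0.108 FPKM in the TAC group, which is about 2.0 to 14 fragments a library. The deposited values were compared as log2(FPKM + 1) with limma over 12391 genes, two-sided, and a log2 fold change on this scale understates changes of genes near 1 FPKM. No member passed an adjusted p of 0.05 (Benjamini-Hochberg), where 0.0% of all genes passed as higher in the TAC + EMPA group and 0.0% as lower. Before adjustment, 10 of the 36 members had p under 0.05 and higher values in TAC + EMPA hearts, against 19.0% of all genes, and 3 had p under 0.05 and lower values, against 14.7%. The groups did not overlap for 6 higher members, against 11.5% of all genes, and for 4 lower members, against 10.7%. The median log2 fold change was -0.02 over the members and 0.03 over all genes, with 17 members on the positive and 19 on the negative side, and the branches are described one by one. Because no member passed, "higher" and "lower" below refer to measured values.

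**Figure D1:**
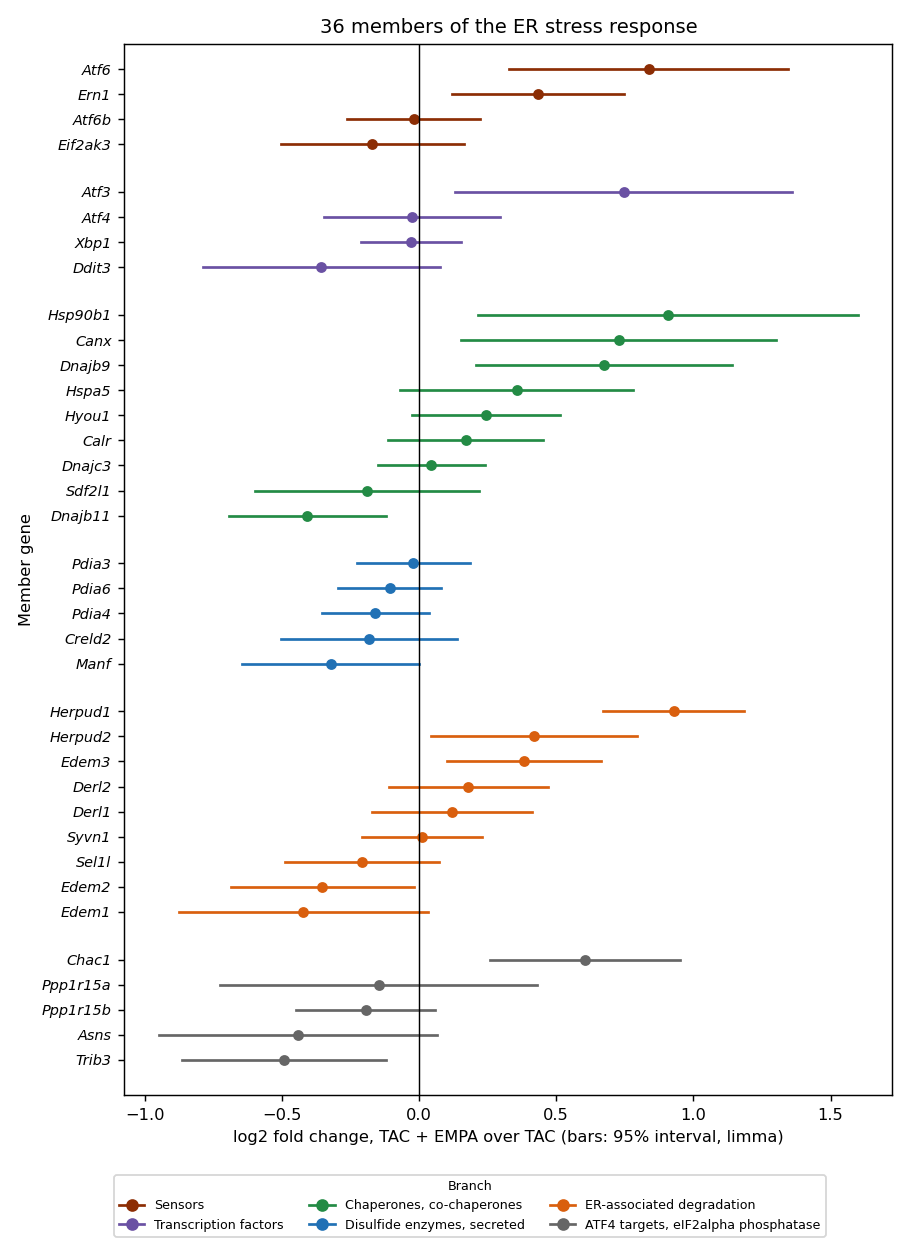
Log2 fold change (x axis, TAC + EMPA over TAC, log2(FPKM + 1) scale) of the 36 tested members, colored by branch, with the 95% interval from limma as a bar. Herpud1 stood at 0.93 with the interval farthest from 0 among the higher members, and all 5 disulfide enzymes and secreted ER proteins lay left of 0.

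The 7 libraries differed in ways that touch every result below. For 76.9% of all genes, and for 29 of the 36 members (80.6%), TAC replicate 3 was closer to the average of the TAC + EMPA libraries than to that of the 2 other TAC libraries. The sum of 10 endothelial markers was 352 to 370 FPKM in the TAC + EMPA group, against 669 and 787 FPKM in TAC replicates 1 and 2 and 376 FPKM in TAC replicate 3, and each of the 10 was lower in TAC + EMPA hearts (median log2 fold change -0.65). Long transcripts (at least 4634 bases) exceeded short ones (at most 1909 bases) by 0.10 to 0.21 on the centred log2 scale in the TAC + EMPA libraries and by 0.09 in TAC replicate 3, and were below them in TAC replicates 1 and 2 (-0.33 and -0.27). Cardiomyocyte markers summed to 54300 to 62200 FPKM in the TAC + EMPA group and 57500 to 70500 FPKM in the TAC group. Myh6 was listed at 0 in at least 1 library, so the cardiomyocyte sum lacks it there. In bulk tissue, fewer cells of a type and less RNA per cell cannot be told apart. The sum of 5 adipocyte markers was 734 to 946 FPKM in the TAC + EMPA group and 989 to 2160 FPKM in the TAC group, lowest in TAC replicate 3. However, 4 of the 5 (Adipoq, Plin1, Cfd and Lep) were listed at 0 in at least 1 library. Only 1 of the 5 averaged at least 1 FPKM, so this sum is close to the value of Fabp4 alone and is not a reading of 5 markers. The part of these differences in the members' values was not tested. Nor was it tested whether TAC replicate 3 is what its label says, and every TAC mean, fold change and value against TAC replicate 3 rests on that label. The 13 members with p under 0.05 before adjustment are therefore given per library, and their log2 fold changes also without TAC replicate 3 and after a correction for transcript length.

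Herpud1, an ER membrane protein that gathers the ERAD ubiquitin ligase complex, showed the clearest separation of the set. It was at 399, 371, 402 and 357 FPKM in TAC + EMPA replicates 1 to 4, against 183, 194 and 225 FPKM in TAC replicates 1 to 3. All 4 TAC + EMPA hearts were above all 3 TAC hearts, with a wide gap, and TAC replicate 3 lay with the other TAC libraries. The log2 fold change was 0.93 (standard error 0.11, 95% interval 0.67 to 1.18, adjusted p = 0.115 in limma), the smallest p-value among higher genes. Its FPKM was the highest of the 37 members in each of the 7 libraries, and about 6900 to 32000 fragments a library lay behind it. The TAC + EMPA mean exceeded TAC replicates 1, 2 and 3 by 1.06, 0.97 and 0.76 on the log2 scale. After the correction for transcript length the log2 fold change was 0.97, and without TAC replicate 3 it was 1.01 (adjusted p = 0.000249 in limma, with a range of 0.000249 to 0.364 over all alternatives tried). Herpud1 (ENSMUSG00000031770) lies on chromosome 8 from 94386438 to 94395377 on the + strand of GRCm38, and its longest annotated transcript has 1952 bases. All 7 tested markers of skeletal muscle fibers were also higher in TAC + EMPA hearts, their median log2 fold change being 1.06 (1.255 against TAC replicate 3 alone), and their part in the Herpud1 value was not tested.

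Herpud2, the paralog of Herpud1, had a lower level and did not separate the groups. It was at 14.0, 14.5, 13.7 and 13.8 FPKM in the TAC + EMPA group, against 8.67, 8.75 and 13.9 FPKM in the TAC group. TAC replicate 3 lay inside the TAC + EMPA range, so the log2 fold change of 0.42 (standard error 0.16) came from TAC replicates 1 and 2, and the difference from TAC replicate 3 alone was 0.01. It was 0.63 without TAC replicate 3 and 0.32 after the correction for length. In FPKM, which is per transcript length, Herpud1 exceeded Herpud2 by 28.6, 25.6, 29.3 and 25.9 times in the TAC + EMPA libraries, against 21.1, 22.2 and 16.2 times in the TAC libraries.

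Among the other ERAD members, the EDEM mannosidases had unlike values. Edem3, an ER mannosidase that marks glycoproteins for degradation, was at 4.87, 4.83, 5.29 and 4.26 FPKM in the TAC + EMPA group, against 3.19, 3.04 and 4.20 FPKM in the TAC group. The groups did not overlap, but TAC + EMPA replicate 4 and TAC replicate 3 lay close together, and the log2 fold change was 0.38 (0.50 without TAC replicate 3 and 0.22 after the correction for length). Edem2, which makes the first mannose cut, was at 4.44, 4.48, 4.35 and 4.53 FPKM in the TAC + EMPA group, against 6.38, 7.32 and 4.48 FPKM in the TAC group (log2 fold change -0.35). TAC replicate 3 lay inside the TAC + EMPA range for Edem2, and the log2 fold change was -0.52 without it and -0.35 after the correction for length. Edem1 ranged from 3.45 to 5.70 FPKM in the TAC + EMPA group and from 5.26 to 8.76 FPKM in the TAC group (log2 fold change -0.42, 95% interval -0.88 to 0.03).

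The core of the ERAD ligase had no difference like that of Herpud1. Syvn1 (HRD1), the ubiquitin ligase itself, had a log2 fold change of 0.01 (95% interval -0.21 to 0.23), and Sel1l, its scaffold, one of -0.21 (-0.49 to 0.07). Syvn1 was at 5.92 to 7.49 FPKM in the TAC + EMPA group and 6.53 to 6.94 FPKM in the TAC group. Sel1l was at 14.5 to 16.6 FPKM in the TAC + EMPA group and 15.1 to 20.8 FPKM in the TAC group, with TAC replicate 3 at the low end. The derlins Derl1 and Derl2, parts of the retrotranslocation channel, had log2 fold changes of 0.12 and 0.18, and for both the TAC + EMPA mean lay below TAC replicate 3 (-0.16 and -0.05). The ratio of Herpud1 to Syvn1, a ratio chosen after the values were seen, was 57.7, 53.8, 53.7 and 60.2 in the TAC + EMPA libraries, against 27.2, 28.0 and 34.5 in the TAC libraries, so the levels of the ligase and of Herpud1 did not keep 1 ratio. Over the 9 tested ERAD members the median log2 fold change was 0.12, and set against TAC replicates 1, 2 and 3 alone it was 0.28, 0.23 and 0.01.

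Of the sensors, Atf6 and Ern1 were higher in TAC + EMPA hearts and Eif2ak3 was not. Atf6 was at 21.3, 19.9, 22.5 and 21.9 FPKM in the TAC + EMPA group, against 10.2, 8.47 and 17.6 FPKM in the TAC group. The groups did not overlap, and TAC replicate 3 stood between the other TAC libraries and the TAC + EMPA range. The log2 fold change was 0.84 (standard error 0.22, adjusted p = 0.115 in limma), 1.12 without TAC replicate 3 and 0.66 after the correction for transcript length. Ern1 was at 1.96, 1.98, 2.28 and 2.33 FPKM in the TAC + EMPA group, against 1.23, 1.04 and 1.76 FPKM in the TAC group, about 140 to 600 fragments a library. Its log2 fold change was 0.43 (standard error 0.13), 0.56 without TAC replicate 3 and 0.26 after the correction for length. The longest transcripts of Atf6 and Ern1 have 7246 and 6946 bases, both in the long class above. Atf6 (ENSMUSG00000026663) lies on chromosome 1 from 170704674 to 170867771.

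Eif2ak3 (PERK) was at 2.57, 2.96, 2.52 and 1.96 FPKM in the TAC + EMPA group, against 3.62, 2.67 and 2.56 FPKM in the TAC group. The groups overlapped, with a log2 fold change of -0.17 (95% interval -0.50 to 0.16). A gene of the opposite strand shares 485 exonic bases with Eif2ak3, and whether strand was used in the counting is not given in the sources used here. Atf6b, the paralog of Atf6, was at 7.65, 7.31, 7.44 and 7.13 FPKM in the TAC + EMPA group, against 7.94, 8.33 and 6.35 FPKM in the TAC group, with TAC replicate 3 below and the other TAC libraries above every TAC + EMPA library (log2 fold change -0.02, 95% interval -0.26 to 0.22). The 4 sensors had a median log2 fold change of 0.21, which covers a pair with intervals above 0 and a pair with intervals across 0.

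The transcription factors below the sensors had no common direction either, with Atf3 higher in TAC + EMPA hearts and the others with intervals across 0. Xbp1, the target of IRE1, was at 21.2, 22.1, 21.0 and 21.9 FPKM in the TAC + EMPA group, against 21.9, 22.1 and 22.2 FPKM in the TAC group. The libraries hardly differed, and the 95% interval of its log2 fold change ran from -0.21 to 0.15. The ratio of Herpud1 to Xbp1 was accordingly 16.3 to 19.1 in the TAC + EMPA libraries and 8.38 to 10.1 in the TAC libraries. Atf4 was at 47.6, 44.8, 43.7 and 41.7 FPKM in the TAC + EMPA group, against 50.1, 50.7 and 36.4 FPKM in the TAC group, with a log2 fold change of -0.03 (95% interval -0.34 to 0.29). TAC replicates 1 and 2 were above and TAC replicate 3 below all TAC + EMPA libraries.

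Ddit3, which encodes CHOP, was at 15.2, 15.2, 15.03 and 14.1 FPKM in the TAC + EMPA group, against 21.7, 24.4 and 13.6 FPKM in the TAC group. As for Atf4, TAC replicate 3 was below every TAC + EMPA library and the other TAC libraries were above them (log2 fold change -0.36, 95% interval -0.79 to 0.08). Ddit3 shares 68 exonic bases with Mars on the other strand and 105 with another annotated Ddit3 gene. Atf3, a stress factor induced by ATF4, was at 3.75, 5.25, 3.61 and 2.02 FPKM in the TAC + EMPA group, against 1.92, 2.22 and 1.07 FPKM in the TAC group, about 43 to 300 fragments a library. TAC + EMPA replicate 4 lay inside the TAC range, and TAC replicate 3 was the lowest of the 7 libraries. Its log2 fold change was 0.75 (standard error 0.26, 95% interval 0.13 to 1.36, adjusted p = 0.118 in limma), and 0.56 without TAC replicate 3 (adjusted p = 0.129 in limma, with a range of 0.0143 to 0.364 over all alternatives tried). After the correction for length it was 0.78.

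**Figure D2:**
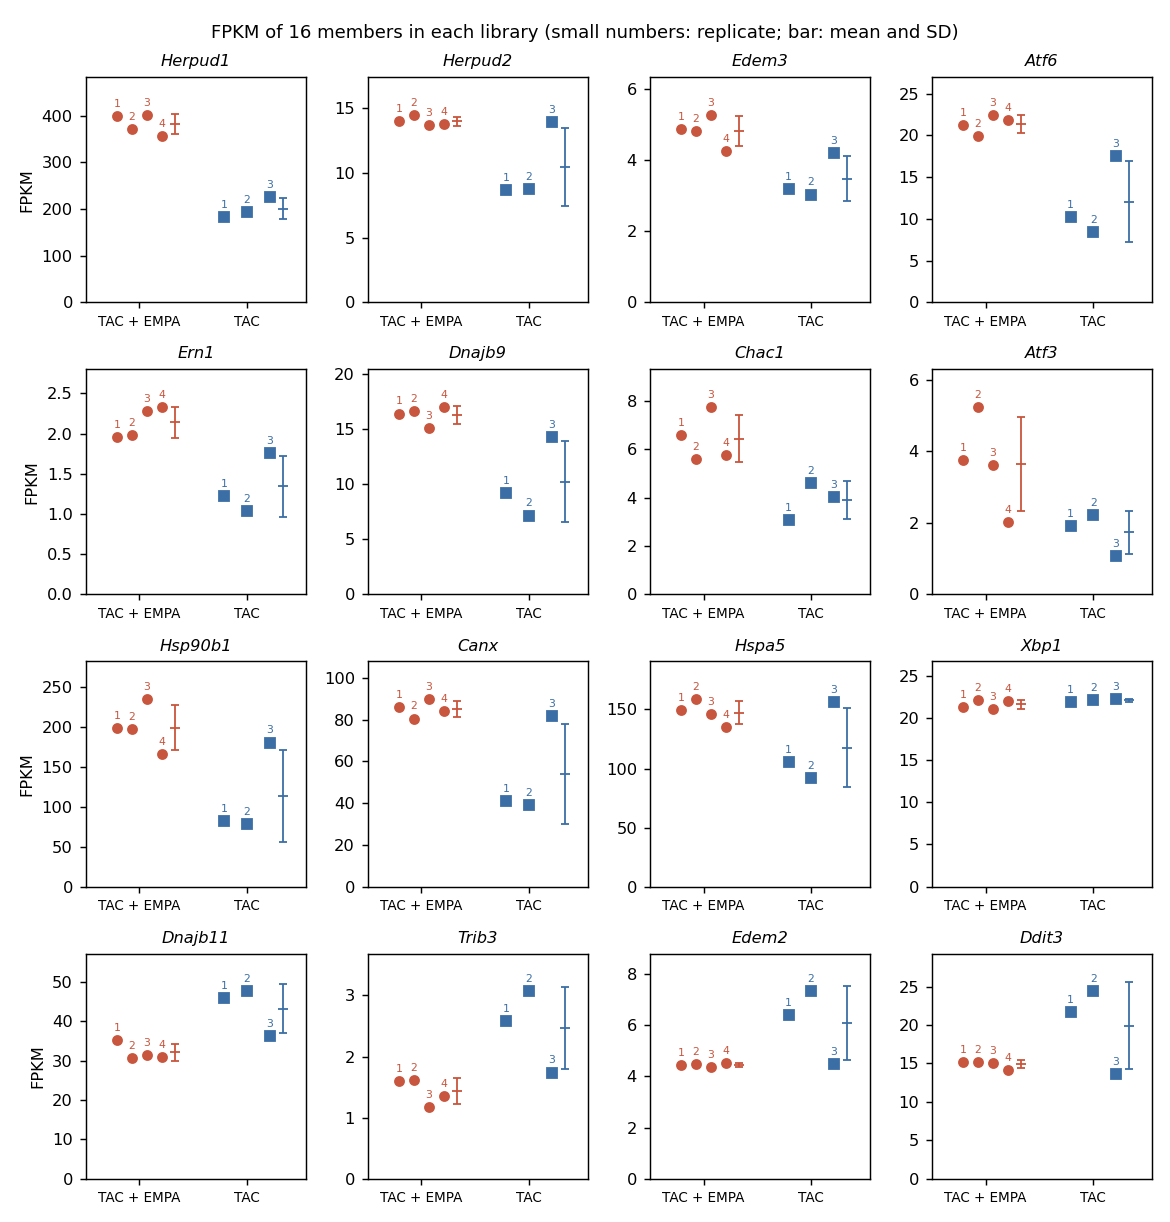
FPKM (y axis, from 0) of 16 members in each library of the TAC + EMPA group (circles, left) and the TAC group (squares, right), with the replicate number above each point and the mean and SD as a bar. Herpud1 and Chac1 separated the groups with all 3 TAC libraries together, whereas for Hsp90b1, Canx, Hspa5 and Herpud2 TAC replicate 3 lay at or near the TAC + EMPA values.

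Several of the large ER chaperones were higher in TAC + EMPA hearts than in TAC replicates 1 and 2, and TAC replicate 3 shared the higher level. Hsp90b1 (GRP94), the ER member of the HSP90 family, was at 198, 197, 235 and 166 FPKM in the TAC + EMPA group, against 82.0, 78.0 and 180 FPKM in the TAC group. Canx (calnexin), a lectin chaperone of the ER membrane, was at 85.8, 80.5, 89.9 and 84.2 FPKM in the TAC + EMPA group, against 41.2, 39.3 and 81.5 FPKM in the TAC group. For both genes TAC replicate 3 fell inside the TAC + EMPA range, and their log2 fold changes of 0.91 and 0.73 (standard errors 0.30 and 0.25) shrank to 0.13 and 0.06 when the TAC + EMPA mean was set against TAC replicate 3 alone. Without TAC replicate 3 they were 1.29 and 1.06, and after the correction for length 0.84 and 0.62. Hsp90b1 shares 415 exonic bases with a pseudogene of the other strand.

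Hspa5 (BiP or GRP78), the HSP70 chaperone of the ER that holds the sensors inactive, was at 149, 159, 146 and 136 FPKM in the TAC + EMPA group, against 105, 92.0 and 156 FPKM in the TAC group. TAC replicate 3 exceeded 3 of the 4 TAC + EMPA hearts, so the direction of Hspa5 depended on which TAC heart was taken, and the log2 fold change was 0.36 (95% interval -0.07 to 0.78). Herpud1 and Hspa5, which are both usual readouts of the response, thus differed in their pattern over the TAC libraries. The ratio of Herpud1 to Hspa5, chosen after the values were seen, was 2.68, 2.34, 2.76 and 2.63 in the TAC + EMPA libraries, against 1.74, 2.11 and 1.45 in the TAC libraries.

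The co-chaperones of Hspa5 had differences of both signs. Dnajb9 (ERdj4), a J-domain protein that represses IRE1, was at 16.4, 16.7, 15.1 and 17.0 FPKM in the TAC + EMPA group, against 9.21, 7.17 and 14.3 FPKM in the TAC group, without overlap (log2 fold change 0.67, standard error 0.20, 0.92 without TAC replicate 3 and 0.66 after the correction for length). Dnajb11 (ERdj3), a secreted J-domain protein, was at 35.3, 30.8, 31.6 and 31.0 FPKM in the TAC + EMPA group, against 45.8, 47.7 and 36.2 FPKM in the TAC group, also without overlap but lower (log2 fold change -0.41, standard error 0.12, adjusted p = 0.115 in limma). For both genes TAC replicate 3 lay between the other TAC libraries and the TAC + EMPA range, and for Dnajb11 it lay within 1 FPKM of TAC + EMPA replicate 1. The log2 fold change of Dnajb11 was -0.53 without TAC replicate 3 and -0.43 after the correction for length. Dnajb11 (ENSMUSG00000004460) lies on chromosome 16 from 22857845 to 22879634.

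The other chaperones differed less. Hyou1, an HSP70-like exchange factor of Hspa5, was at 7.06 to 8.51 FPKM in the TAC + EMPA group and 5.41 to 7.30 FPKM in the TAC group, with a log2 fold change of 0.24. Calr (calreticulin), the soluble partner of calnexin, had a log2 fold change of 0.17, at 122 to 153 FPKM in the TAC + EMPA group and 115 to 140 FPKM in the TAC group. Dnajc3 (P58IPK), an inhibitor of PERK, had one of 0.05 (95% interval -0.15 to 0.24), and Sdf2l1, which works with Dnajb11, one of -0.19 (-0.60 to 0.22) at about 36 to 120 fragments a library. Over the 9 chaperones the median log2 fold change was 0.24, and it was 0.42, 0.29 and 0.05 against TAC replicates 1, 2 and 3.

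The disulfide enzymes and secreted ER proteins all had negative log2 fold changes, none of them large. Pdia4, a disulfide isomerase, was at 8.20, 8.21, 7.94 and 7.51 FPKM in the TAC + EMPA group, against 9.13, 9.56 and 8.36 FPKM in the TAC group. Pdia6, another disulfide isomerase that also acts on IRE1, was at 27.2, 27.3, 27.1 and 28.8 FPKM in the TAC + EMPA group, against 30.4, 29.0 and 30.0 FPKM in the TAC group. Neither isomerase overlapped between the groups, and both differences were small, with log2 fold changes of -0.16 (95% interval -0.35 to 0.04) and -0.11 (-0.30 to 0.08).

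Manf, a secreted factor that binds Hspa5 and protects stressed cells, had the most negative log2 fold change of this branch at -0.32 (95% interval -0.65 to 0.0011), at 17.6 to 24.1 FPKM in the TAC + EMPA group and 22.9 to 28.6 FPKM in the TAC group. It shares 146 exonic bases with Dcaf1 and 166 with an antisense gene on the other strand. Creld2, a secreted ER protein with a part in disulfide folding, had a log2 fold change of -0.18 (-0.50 to 0.14). Pdia3 (ERp57), the isomerase that works with calnexin and calreticulin, had one of -0.02 (-0.23 to 0.19) at 58.5 to 63.7 FPKM in the TAC + EMPA group and 59.3 to 65.3 FPKM in the TAC group. The partners Canx and Pdia3 therefore had unlike log2 fold changes, 0.73 and -0.02.

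The targets of ATF4 split between Chac1 and the rest. Chac1, which degrades glutathione and is induced through ATF4, ATF3 and CHOP, was at 6.60, 5.61, 7.75 and 5.77 FPKM in the TAC + EMPA group, against 3.08, 4.59 and 4.05 FPKM in the TAC group. The groups did not overlap, and TAC replicate 3 stood between the other TAC hearts. Its log2 fold change was 0.60 (standard error 0.15, 95% interval 0.26 to 0.95, adjusted p = 0.115 in limma), 0.63 without TAC replicate 3 and 0.68 after the correction for length. Chac1 (ENSMUSG00000027313) lies on chromosome 2 from 119351229 to 119354381.

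Trib3, a pseudokinase that is a standard target of ATF4 and CHOP, was at 1.60, 1.62, 1.17 and 1.35 FPKM in the TAC + EMPA group, against 2.57, 3.07 and 1.74 FPKM in the TAC group, about 58 to 210 fragments a library. The groups did not overlap, with lower values in the TAC + EMPA hearts (log2 fold change -0.49, standard error 0.16, adjusted p = 0.117 in limma), and TAC replicate 3 lay close to TAC + EMPA replicate 2. Without TAC replicate 3 it was -0.65, and after the correction for length -0.46. Asns, the asparagine synthetase, had a log2 fold change of -0.44 (95% interval -0.95 to 0.07), at 0.8997 to 1.72 FPKM in the TAC + EMPA group and 1.34 to 2.95 FPKM in the TAC group. Trib3 (ENSMUSG00000032715) lies on chromosome 2 from 152337422 to 152344032.

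The phosphatase subunits that reverse the phosphorylation of eIF2alpha were not distinguishable between the groups. Ppp1r15a (GADD34), the inducible subunit, was at 26.5 to 32.8 FPKM in the TAC + EMPA group and spread from 21.0 to 47.0 FPKM in the TAC group, with a log2 fold change of -0.15 (95% interval -0.73 to 0.43). Ppp1r15b (CReP), the constitutive subunit, had one of -0.19 (-0.45 to 0.06), and a gene of the other strand shares 640 of its exonic bases. Over the 5 genes of this branch the median was -0.19, and it was -0.31, -0.64 and -0.01 against TAC replicates 1, 2 and 3.

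Set against TAC replicate 3 alone, 4 members differed from the TAC + EMPA mean by more than 0.4 on the log2 scale, a limit set after the values were seen: Atf3 (1.12), Herpud1 (0.76), Chac1 (0.55) and Ppp1r15a (0.48). The other 32 members were within 0.28 of TAC replicate 3. The share of all genes beyond this limit is not given, so the 4 are not read as more or fewer than among other genes. Each of these differences rests on 1 TAC library, in which Atf3 had about 43 fragments. Herpud1, Chac1 and Atf3 were also above TAC replicates 1 and 2, by 1.01, 0.63 and 0.56, while Ppp1r15a was below them (-0.46). TAC replicate 3 lay nearer to the other TAC hearts for 7 members: Herpud1, Chac1, Atf3, Xbp1, Pdia6, Dnajc3 and Sdf2l1.

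**Figure D3:**
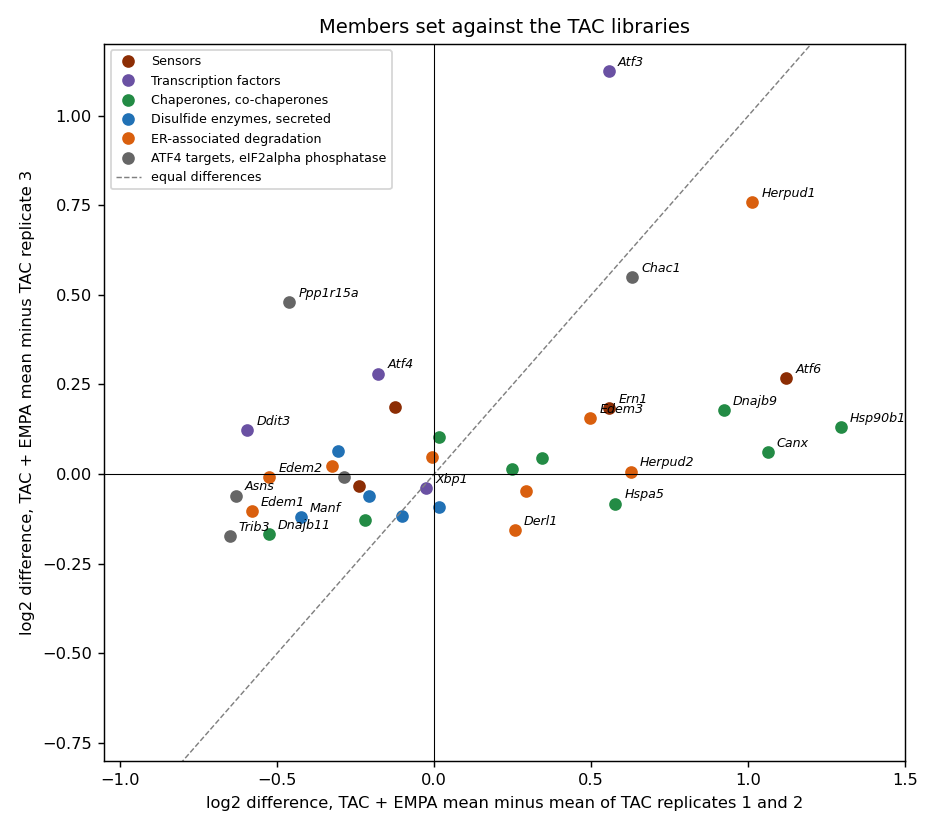
Each point is 1 of the 36 tested members, with the log2 difference of the TAC + EMPA mean from the mean of TAC replicates 1 and 2 on the x axis and from TAC replicate 3 on the y axis, both on the log2(FPKM + 1) scale. Atf3, Herpud1 and Chac1 lay high on both axes, and most other members lay near 0 on the y axis whatever their place on the x axis.

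Leaving out TAC replicate 3 changed the counts for the members and for all genes alike. Without it, 13 of the 36 members passed an adjusted p of 0.05 in limma as higher, against 29.8% of all genes, and 11 as lower, against 23.6%. The 13 higher members were the sensors Atf6 and Ern1, the chaperones Hsp90b1, Canx, Hspa5, Hyou1 and Dnajb9, the ERAD genes Herpud1, Herpud2, Edem3, Derl1 and Derl2, and Chac1. The 11 lower members were Ddit3, Dnajb11, Pdia4, Manf, Sel1l, Edem1, Edem2, Ppp1r15a, Ppp1r15b, Trib3 and Asns. The members' shares were therefore near the shares of all genes, and only 2 TAC hearts stood behind them.

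The members with an ERSE match had log2 fold changes on both sides of 0. Hsp90b1 (0.91), Canx (0.73), Hspa5 (0.36) and Calr (0.17) were on the higher side, Dnajc3 (0.05) and Syvn1 (0.01) were near 0, and Pdia6 (-0.11) and Creld2 (-0.18) were on the lower side, while Derl3 was not tested. The 2 members with an ERSE-II match, Herpud1 (0.93) and Dnajb11 (-0.41), lay at opposite ends. Of the 5 members with a CARE match, Herpud1, Atf3 (0.75) and Chac1 (0.60) were higher, and Asns (-0.44) and Trib3 (-0.49) were lower. The UPRE match was in Hspa5.

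**Figure D4:**
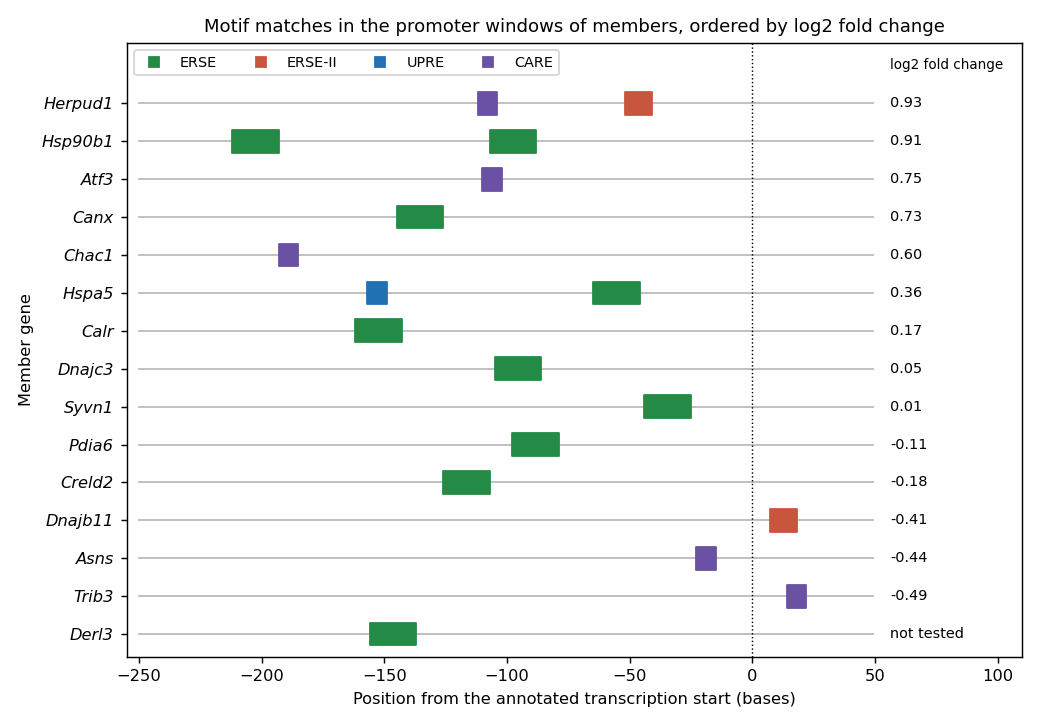
Position of motif matches from the annotated transcription start (x axis, bases) in the RefSeq windows of the 15 members with at least 1 match, ordered from the highest to the lowest log2 fold change (TAC + EMPA over TAC, at the right). ERSE matches occurred in members from 0.91 to -0.18, and the CARE matches in members from 0.93 to -0.49.

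Of 153 other genes of the pathway in 6 lists, 144 were tested. Of these, 37 were on the higher and 18 on the lower side in the TAC + EMPA group with p under 0.05 before adjustment, where 19.0% and 14.7% of all genes were, and 0 of the 144 remained under 0.05 after limma's adjustment over all genes. Among 25 other ERAD genes, 10 were higher and 1 was lower with p under 0.05 before adjustment (19.0% and 14.7% of all genes), and the list had a median log2 fold change of 0.26. The higher ones were led by Dnajb12, a membrane co-chaperone (0.46), Ubxn4, an adaptor of the p97 ATPase (0.53), and Nploc4, a p97 cofactor (0.64), and the lower one was Bag6 (-0.46), which holds extracted membrane proteins in the cytosol. Dnajb12 was at 18.5, 18.8, 17.5 and 16.6 FPKM in the TAC + EMPA group, against 11.7, 12.2 and 14.1 FPKM in the TAC group, without overlap and with TAC replicate 3 closer to the other TAC hearts than to the TAC + EMPA mean.

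Among 28 other folding and disulfide enzymes, 4 were higher and 6 were lower by the same count (19.0% and 14.7% of all genes), and the list had a median log2 fold change of -0.13. Dnajc1 (0.50), Tmx1 (0.63) and Tmx4 (0.60), a J-domain protein and 2 membrane-bound thioredoxins, led the higher ones. Prdx4 (-0.47), an ER peroxiredoxin, and the prolyl isomerases Ppib (-0.42) and Fkbp14 (-0.42), which act on collagen among other proteins, led the lower ones. Prdx4 was at 14.3 to 18.4 FPKM in the TAC + EMPA group and 19.3 to 24.5 FPKM in the TAC group. The sum of 9 fibroblast markers, which include collagen genes, was 444 to 574 FPKM in the TAC + EMPA group and 522 to 658 FPKM in the TAC group, and its part in these values was not tested.

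Among 36 genes of translocation, glycosylation and ER exit, 11 were higher and 5 were lower by the same count (19.0% and 14.7% of all genes). Sar1a, the GTPase of COPII vesicles (0.42), Ssr1 of the translocon (0.45) and Srp68 of the signal recognition particle (0.24) led the higher ones. The small translocon subunits Sec61b (-0.76) and Sec61g (-0.60) and the signal peptidase subunit Sec11c (-0.52) led the lower ones. Sec61b was at 12.7 to 18.8 FPKM in the TAC + EMPA group and 19.1 to 30.5 FPKM in the TAC group. Of 28 tested other targets of ATF4 and CHOP, 5 were higher and 1 was lower by the same count (19.0% and 14.7% of all genes). Eprs, the glutamyl-prolyl-tRNA synthetase (0.66), Vldlr, a lipoprotein receptor (1.25), and Ero1a, the disulfide oxidase (0.47), led the higher ones, and the lower one was Pck2, the mitochondrial PEP carboxykinase (-0.68). Vldlr overlapped between the groups through TAC replicate 3, with 65.7 to 78.0 FPKM in the TAC + EMPA group and 20.6, 19.5 and 66.1 FPKM in the TAC group.

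Markers of other cell types that the hearts could hold were summed. The sum of 10 plasma and B cell markers was 9.50 to 12.8 FPKM in the TAC + EMPA group and 10.6 to 15.8 FPKM in the TAC group, and Jchain and Tnfrsf17 were listed at 0 in at least 1 library. The sum of 8 hepatocyte markers was 32.0 to 115 FPKM in the TAC + EMPA group, highest in replicate 4, and 34.3 to 73.2 FPKM in the TAC group. The sum of 8 skeletal muscle fiber markers was 4650 to 6430 FPKM in the TAC + EMPA group and 4580 to 5210 FPKM in the TAC group, and Myh1 and Myh4 were listed at 0 in at least 1 library. This list includes Acta1 and Ckm, which heart muscle also expresses. The part of these lists in the members' values was not tested.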

How the data were processed

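Total RNA of 7 hearts was made into stranded mRNA libraries. The authors mapped reads to GRCm38 with TopHat2 2.0.13 and deposited, for each library, the FPKM of every gene as computed by Cuffdiff (Cufflinks 2.2.1), whose scaling option between libraries and use of strand are not given in the sources used here. The p-values, q-values and fold changes that Cuffdiff gave, and tables of enriched terms, were not used. FPKM are not counts, so no count model was fitted. Relative depth was taken from the steps between low values of genes with 1 exon (at least 99.0% within 0.1 of a whole number), and ran from 1 to 2.24, with TAC replicate 1 and TAC + EMPA replicate 1 the deepest. The number of fragments a library is unknown, and fragment numbers in the text are approximate.

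The 12391 of 53460 genes whose FPKM averaged at least 1 were analysed as log2(FPKM + 1). The groups were compared with limma 3.58.1 (R 4.3.3), two-sided, with a trend in the prior variance, 5 residual degrees of freedom and Benjamini-Hochberg adjustment at 0.05. The fit was tested on simulated data. Members were matched by symbol, and of 281 listed symbols 3 were matched by another name. Lengths and overlaps came from the GENCODE annotation of GRCm38, and promoter sequences from RefSeq (GRCm38.p6). Every member is named. Each library's value is given for members whose groups did not overlap, members at an unadjusted p under 0.05, the sensors, the transcription factors and Herpud2, and of each other list the 3 highest and 3 lowest by moderated t at an unadjusted p under 0.05 are named. The members and the lists were chosen with earlier results of these data known. The alternatives covered the pseudocount, the filter, normalization, length, the variance prior, failed genes, the replicate number as a block, and libraries left out. Python 3.11.15, pandas 2.3.3 and matplotlib 3.10.9 were used.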

Additional observations from a re-analysis of the deposited data

Results flagged for a closer look

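Among the 36 tested members, Derl3 and the 6 branch medians (43 examined), Dixon's ratio of the gap to the whole range in the 4 TAC + EMPA libraries passed its 95% limit for 2 genes, where chance alone flags 5% of such groups, about 2.1. Dnajb11 had a ratio of 0.8297, with TAC + EMPA replicate 1 (35.3 FPKM) above the other libraries of its group (30.8 to 31.6 FPKM) and close to TAC replicate 3 (36.2 FPKM). Pdia6 had a ratio of 0.8825, with TAC + EMPA replicate 4 (28.8 FPKM) above the other libraries of its group (27.1 to 27.3 FPKM) and close to TAC replicate 2 (29.0 FPKM).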

How the results depend on the processing

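Of the 36 tested members, 30 kept the sign of their log2 fold change under all 18 alternatives, Herpud1 (0.86 to 1.01 when single libraries were left out) and Chac1 (0.48 to 0.70) among them. With TAC replicate 3 and TAC + EMPA replicate 4 both left out, 14 members passed an adjusted p of 0.05 in limma as higher and 8 as lower (0 and 0 with all libraries), with 3761 and 2957 of all genes, 11 members were lower at an unadjusted p under 0.05 (3), the groups did not overlap for 15 higher and 16 lower members (6 and 4), and the branch medians were 0.27 for ER-associated degradation (0.12) and -0.51 for the ATF4 targets (-0.19). Members lower at an unadjusted p under 0.05 numbered 5 under quantile normalization, 5 under median centring and 7 under the correction for transcript length. For the alternatives, shares of all genes are given only for the counts past the adjusted threshold. The counts before adjustment and without overlap are therefore not read as results about the members. A gene whose groups do not overlap stays so when a library is left out, so the counts without overlap can only stay or rise. These counts were 6 higher and 4 lower without TAC replicate 1, 7 and 4 without TAC replicate 2, and 13 and 15 without TAC replicate 3. The part of the smaller number of libraries in them was not tested. Without a filter on low values, 2 of all genes passed as lower. The median of the sensors was 0.32 with a pseudocount of 0.1 and 0.11 after the correction for length (0.21), and that of ER-associated degradation 0.045 under quantile normalization.

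Leaving out each library in turn gave 0 to 13 higher and 0 to 11 lower members past the adjusted threshold (0 to 3694 and 0 to 2930 of all genes), 6 to 14 higher and 1 to 13 lower members with p under 0.05 before adjustment, and 6 to 13 higher and 4 to 15 lower members without overlap, with the high end of each range when TAC replicate 3 was left out. Shares of all genes are not given for the counts before adjustment and without overlap. The branch medians ran from 0.039 to 0.26 for ER-associated degradation and from -0.46 to -0.14 for the ATF4 targets. The sign turned for members near 0 and for Ppp1r15a. Over the libraries left out, Atf6b ran from -0.12 to 0.048, Atf4 from -0.18 to 0.055, Pdia3 from -0.054 to 0.015 and Syvn1 from -0.031 to 0.067. Ppp1r15a, whose values spread widely over the TAC libraries, ran from -0.46 to 0.10. After the correction for length Atf4 was at 0.0064, Dnajc3 at -0.091 and Syvn1 at -0.095. Under quantile normalization Dnajc3 was at -0.0028 and Syvn1 at -0.034, under median centring Syvn1 at -0.032, and with both libraries left out Pdia3 at 0.036. The cause was not tested.

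Deviations of same-numbered libraries from their group means had r = 0.10, 0.08 and -0.03 over all genes. With 3 TAC libraries, of which 1 stands apart, these values cannot decide whether the numbers pair the hearts. With the replicate number as a block, 9 members were higher and 3 were lower before adjustment (share of all genes not given). In that fit Atf4 was at 0.0037 and Pdia3 at 0.00024. Depth limits Derl3, Sdf2l1, Asns, Atf3 and Trib3, whose lowest libraries held about 2.0, 36, 42, 43 and 58 fragments, and 3 TAC hearts of which 1 stands apart limit every member.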

Other observations

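A pair of further lists held genes next to the response. Of 12 other genes of eIF2alpha kinases and translation control, 4 were higher and 3 were lower in TAC + EMPA hearts with p under 0.05 before adjustment, against 19.0% and 14.7% of all genes. Fbxo32 (atrogin-1), a muscle ubiquitin ligase, was at 35.8, 36.2, 38.9 and 35.6 FPKM in the TAC + EMPA group, against 12.4, 15.7 and 28.9 FPKM in the TAC group, without overlap (log2 fold change 0.998). Eif2s1, which encodes eIF2alpha itself, had a log2 fold change of 0.66. Among the genes named by moderated t were subunits of its exchange factor eIF2B, with 0.32 for Eif2b1, -0.24 for Eif2b3 and -0.40 for Eif2b5. They were picked as extremes and do not describe eIF2B as a whole. Nck1, an adaptor that also brings the phosphatase to eIF2alpha, had one of -0.26.

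The list of other membrane-bound transcription factors and their proteases also held genes of other kinds, Insig1 and Bax among them. Of its 16 tested genes, 4 were higher and 2 were lower by the same count (19.0% and 14.7% of all genes). Insig1, which holds the sterol regulator SCAP in the ER, was at 9.59 to 10.6 FPKM in the TAC + EMPA group and 6.30 to 8.21 FPKM in the TAC group (log2 fold change 0.41), and Mbtps2, the protease that makes the last cut in ATF6, at 2.84 to 3.90 FPKM in the TAC + EMPA group and 1.86 to 2.62 FPKM in the TAC group (0.38). Neither overlapped between the groups. Nfe2l1, an ER-held factor for proteasome genes, had a log2 fold change of 0.75, with TAC replicate 3 (215 FPKM) inside the TAC + EMPA range of 212 to 271 FPKM. Bax, a cell death gene of the same list, was at 28.9 to 47.3 FPKM in the TAC + EMPA group and 52.4 to 77.5 FPKM in the TAC group (-0.78), and Creb3l1, a membrane-bound factor active in matrix-secreting cells, had one of -0.41.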
